A study of Mus musculus with 8 samples.

Results

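Voltage-gated sodium and calcium channel genes were taken as every protein-coding gene of the GENCODE annotation (mm10) whose symbol begins with Cacn, or with Scn followed by a digit. The rule gave 40 genes of 21938, of which 14 were sodium channel genes and 26 were calcium channel genes. The part of the genome measured for each gene, called its locus here, ran from 3 kb before the gene body to 3 kb after it. The data were lists of open chromatin peaks from ATAC-seq, in which the Tn5 transposase cuts and tags accessible DNA for sequencing, and the measures were whether a peak was present and how many bp of a locus the peaks covered. Channel loci were compared between 4 BCAS mice and 4 sham mice, 1 library per mouse. All mice were male C57BL/6 animals, 14 weeks old, whose cortex was taken 3 weeks after surgery. BCAS mice carried a 0.16 mm microcoil on the right common carotid artery and a 0.18 mm microcoil on the left, which lowers blood flow to the forebrain (BCAS hypoperfusion), and sham mice had the same exposure of the arteries with no coil. The labels give the right cerebral cortex as the tissue, whereas the study's sample table describes cortex of the whole brain. Nuclei came from bulk tissue, so that fewer cells of a type and less open DNA per cell cannot be told apart.

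Voltage-gated sodium channels carry the upstroke of the action potential. Each has a pore-forming α subunit and auxiliary β subunits that tune its gating and hold it in the membrane. Voltage-gated calcium channels turn depolarization into calcium entry, which triggers transmitter release, dendritic signalling and activity-dependent transcription. Their α1 subunit forms the pore and sets the type of current, and the α2δ and β subunits govern trafficking and gating. Most γ subunits of the cortex serve as auxiliary subunits of AMPA receptors (TARPs) and were kept because their symbols meet the rule. In cortex, sodium channels cluster at the axon initial segment and at nodes, and calcium channels lie at terminals, somata and dendrites.

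Peaks of all libraries that overlapped by at least 1 bp were merged into 197916 regions, and 822 of these lay in the channel loci. The windows shown first come from intronic regions with a peak in every library of one group and in at most 1 library of the other, since presence of a peak differed most in such regions. Each is given on the plus strand of GRCm38 as 201 bases centred on the summit of the strongest peak, with an AP-1 motif (TGAGTCA on either strand) or a PU.1 motif (GAGGAAGT on either strand) in capitals where one was found. The first 3 windows had peaks in every BCAS library and the next 4 in every sham library.
Cacnb4, intron, peaks in 4 BCAS and 0 sham libraries, chr2:52577827-52578027: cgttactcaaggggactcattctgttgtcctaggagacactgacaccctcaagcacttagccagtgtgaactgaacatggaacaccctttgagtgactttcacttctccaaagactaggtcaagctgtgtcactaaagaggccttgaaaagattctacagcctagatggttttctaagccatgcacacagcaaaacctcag
Cacna1d, intron, peaks in 4 BCAS and 0 sham libraries, chr14:30362440-30362640: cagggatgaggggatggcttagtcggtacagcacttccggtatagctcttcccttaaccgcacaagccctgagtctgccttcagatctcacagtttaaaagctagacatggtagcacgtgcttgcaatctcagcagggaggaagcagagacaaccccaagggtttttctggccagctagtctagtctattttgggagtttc
Cacna1d, intron, peaks in 4 BCAS and 0 sham libraries, chr14:30371174-30371374: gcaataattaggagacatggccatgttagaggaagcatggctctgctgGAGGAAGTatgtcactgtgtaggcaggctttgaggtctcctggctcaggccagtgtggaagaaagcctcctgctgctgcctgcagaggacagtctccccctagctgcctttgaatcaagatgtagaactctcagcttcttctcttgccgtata
Cacna1e, intron, peaks in 0 BCAS and 4 sham libraries, chr1:154813802-154814002: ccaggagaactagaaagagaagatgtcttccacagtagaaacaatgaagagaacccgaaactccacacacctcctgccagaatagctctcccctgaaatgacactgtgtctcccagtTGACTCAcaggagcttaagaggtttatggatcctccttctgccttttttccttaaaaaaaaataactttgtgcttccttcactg
Cacnb4, intron, peaks in 0 BCAS and 4 sham libraries, chr2:52563461-52563661: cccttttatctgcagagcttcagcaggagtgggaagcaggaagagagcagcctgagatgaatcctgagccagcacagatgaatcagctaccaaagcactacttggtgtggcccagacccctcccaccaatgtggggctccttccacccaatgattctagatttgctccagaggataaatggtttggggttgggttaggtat
Scn2a, intron, peaks in 1 BCAS and 4 sham libraries, chr2:65694565-65694765: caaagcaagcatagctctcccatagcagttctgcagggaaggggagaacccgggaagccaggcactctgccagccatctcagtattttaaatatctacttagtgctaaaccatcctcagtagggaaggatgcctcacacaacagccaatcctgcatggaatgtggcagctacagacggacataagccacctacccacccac
Cacna1c, intron, peaks in 1 BCAS and 4 sham libraries, chr6:119077248-119077448: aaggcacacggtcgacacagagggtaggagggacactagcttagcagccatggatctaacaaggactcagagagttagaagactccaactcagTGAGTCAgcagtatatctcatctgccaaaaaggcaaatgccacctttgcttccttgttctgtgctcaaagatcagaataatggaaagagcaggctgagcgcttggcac

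Of the 9 regions with a peak in every sham library and in 1 BCAS library, the windows of Scn2a and Cacna1c alone are shown. The TGAGTCA motif of AP-1, a dimer of Fos and Jun proteins induced by activity and injury, stood in the sham-only window of Cacna1e and in the window of Cacna1c. It also lay near the summit of a Cacna1a region that is not shown, with peaks in 1 BCAS and 4 sham libraries. The GAGGAAGT motif of PU.1, a factor of microglia and other myeloid cells, stood in 1 of the 2 BCAS-only windows of Cacna1d. Over all 822 channel regions, TGAGTCA lay within 100 bp of the summit in 89 regions (10.8%), against 11.3% of all 197916 regions. GAGGAAGT lay there in 17 (2.07%), against 2.92% of all regions. Both shares were therefore close to those of open regions at large.

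The left part of the RE1 element (TTCAGCACC), which is bound by REST, a repressor of neuronal genes outside neurons, lay within 100 bp of the summit in 6 channel regions (0.73%), against 0.278% of all regions. These regions lay in the loci of Cacna1s, Cacng2, Scn8a, Cacnb4, Cacng3 and Scn10a. The Cacna1s region lay within 1 kb of a start of another gene, Ascl5. Peaks were present in all 8 libraries in the regions of Cacna1s, Cacng2 and Cacng3. The Scn8a region had peaks in 3 BCAS and 1 sham libraries. The Cacnb4 region had them in 2 and 2, and the Scn10a region in 2 and 3. The right part (GGACAGCGC) lay in 0 of 822 channel regions (a count of 0 allows up to 0.365%) and in 0.137% of all regions. The promoter regions of the TARP genes Cacng2 and Cacng3 are shown because both were open in all 8 libraries and hold the left part, here in capitals.
Cacng2, promoter, chr15:78119865-78120065: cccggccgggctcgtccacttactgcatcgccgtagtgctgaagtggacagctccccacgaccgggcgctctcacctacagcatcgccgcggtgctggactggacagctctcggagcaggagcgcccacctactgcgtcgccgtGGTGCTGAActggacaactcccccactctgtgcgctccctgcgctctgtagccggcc
Cacng3, promoter, chr7:122670891-122671091: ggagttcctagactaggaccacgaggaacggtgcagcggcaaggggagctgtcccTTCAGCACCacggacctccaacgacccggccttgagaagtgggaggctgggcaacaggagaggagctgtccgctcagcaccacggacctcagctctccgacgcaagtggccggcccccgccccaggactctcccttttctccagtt
The other motifs were searched on both strands in the same way. CREB (TGACGTCA) lay in 2 channel regions (0.243%, against 0.483% of all regions) and MEF2 (CTATTTATA) in 4 (0.487%, against 0.558%). EGR (GCGTGGGCG) lay in 1 (0.122%, against 0.153%) and CTCF (AGGGGGCGC) in 5 (0.608%, against 0.597%). RFX (GTTGCCATG) lay in 11 (1.34%, against 0.858%) and NEUROD (CAGATGG) in 72 (8.76%, against 9.27%). A match is a description of the letters and not evidence of binding.

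No locus of the 40 channel genes passed the test between BCAS and sham mice. The bp covered in a locus, corrected for how much each library covered in total, were tested as log2(bp + 200) by limma over all 17035 loci with a mean of at least 200 bp. Of the 40 channel genes, 39 were tested and 0 had an adjusted p (Benjamini-Hochberg) under 0.05 in either direction. Over all tested loci, 3.16% were higher in BCAS mice and 0.376% were lower. At an unadjusted p under 0.05, 3 channel loci were higher, with Scn4a among them, where 10.6% of all loci were, and 6 were lower (Scn2a, Cacna1e, Cacna2d3, Cacna1c, Cacng8 and Cacna1b), where 4.39% of all loci were. The median log2 difference (BCAS minus sham) was -0.09 over the 39 channel loci, against 0.00 over all loci, and 26 of the 39 differences were below 0 (66.7%, against 49.6% of all loci). The SE of a channel locus ranged between 0.06 and 0.28 with a median of 0.12.

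**Figure D1:**
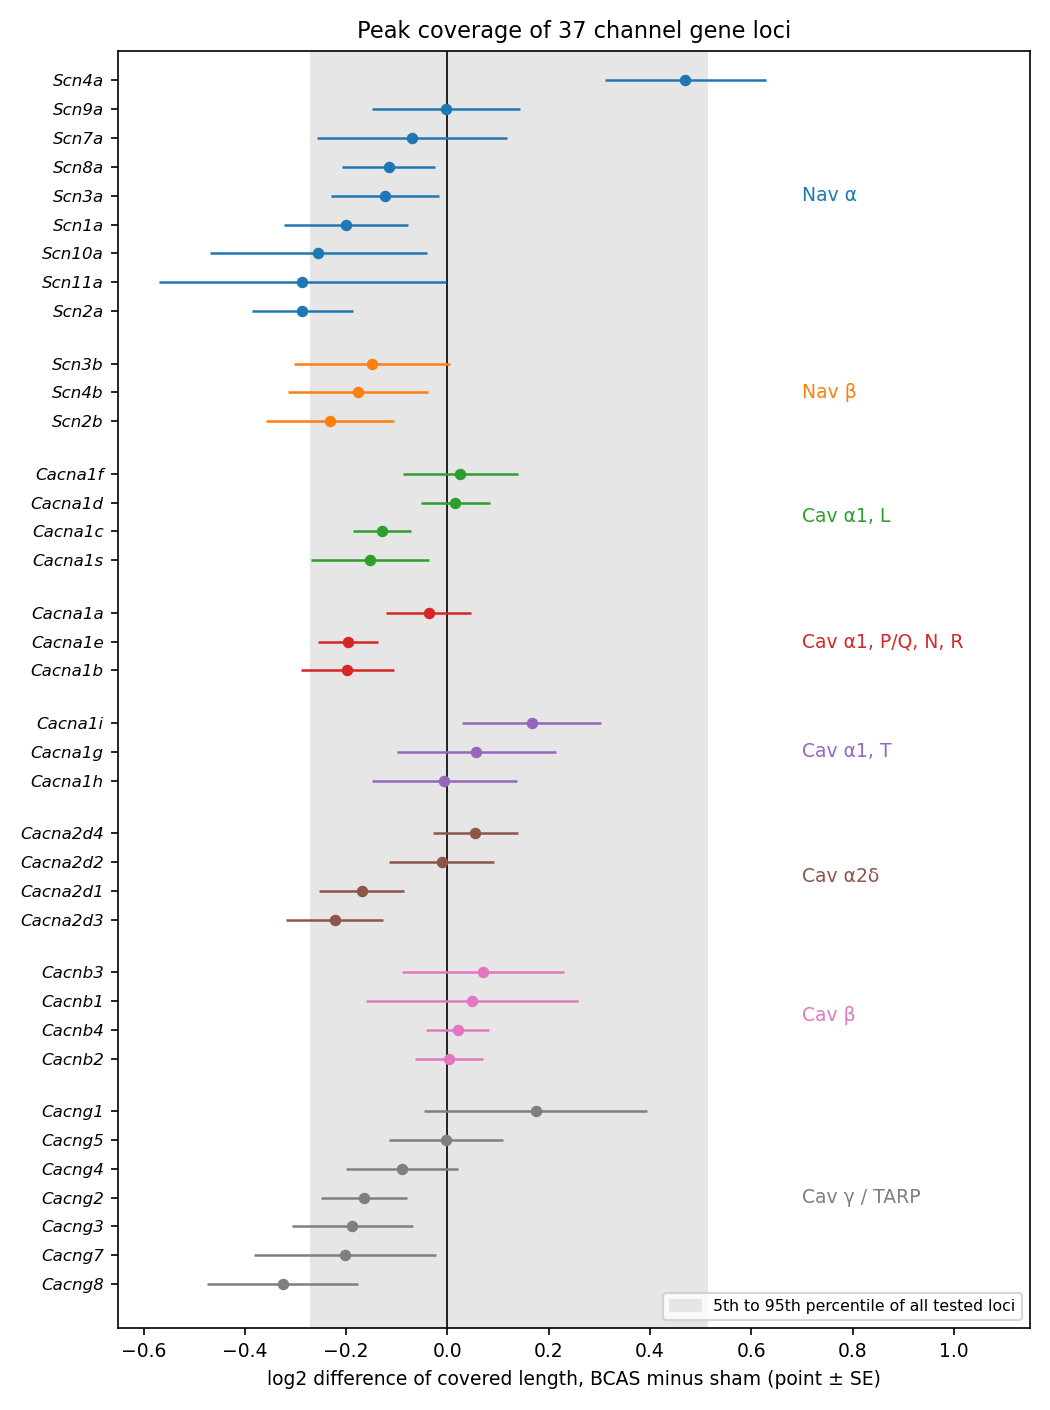
Log2 difference of covered length (BCAS minus sham, x axis) for 37 of the 39 tested channel loci, grouped by subunit, with the SE as a bar and the 5th to 95th percentile of all 17035 loci in grey. The differences lie between -0.33 for Cacng8 and 0.47 for Scn4a, and 26 of the 37 are below 0.

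Channel loci were long, with a median of 116.5 kb against 29.8 kb for all tested loci. Peaks covered a median of 37.1 bp per kb in the 40 channel loci and 46.3 bp per kb in all tested loci. Among the sodium channel α subunits, Scn7a, Scn9a, Scn10a and Scn11a were thinly covered. Scn7a was at 4.22 bp per kb in BCAS mice and 4.46 in sham mice, and Scn11a at 5.65 and 7.65. Scn10a was at 7.91 bp per kb in BCAS mice and 9.2 in sham mice, and Scn9a at 9.03 and 8.96. Scn4a, the channel of skeletal muscle, was at 25.0 bp per kb in BCAS mice and 16.59 in sham mice. Across the 39 loci the log2 difference and the log2 of locus length had Pearson's r = -0.27 and Spearman's rho = -0.22, a description over genes that share their 8 libraries. Of the 22 loci over 100 kb, 16 had a difference below 0, and so had 10 of the 17 shorter ones.

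The lists differed in length between libraries. They held 119565 to 160720 peaks on 21 chromosomes in BCAS libraries and 107391 to 144988 in sham libraries, covering 48.9 to 66.3 Mb and 44.5 to 60.8 Mb. BCAS library 1 held the most peaks of all. The lists hold no read counts, and the number of reads under each peak is therefore not known. By the study's quality table the libraries fall into a class of higher GC content of the reads (BCAS 1 and sham 1, 2 and 3) and a class of lower GC content (BCAS 2, 3 and 4 and sham 4), which is unbalanced between the groups. Values within each class are given below for some loci, and each class holds a group with 1 library. Markers of neurons, glia, vessels and muscle were measured in the same way. Of 9 microglial marker loci, all 9 had a difference above 0 (median 0.18), 1 was called higher (Itgam) and their summed covered length was 24648 to 27541 bp in BCAS libraries and 19501 to 25080 bp in sham libraries. Of 5 tested excitatory neuron marker loci 3 were below 0 (median -0.12), with sums of 15493 to 17800 bp in BCAS libraries and 16738 to 18583 bp in sham libraries. The median was 0.04 for 5 tested inhibitory neuron markers, 0.07 for 6 astrocyte markers, -0.03 for 6 oligodendrocyte markers, -0.02 for 5 oligodendrocyte precursor markers and -0.10 for 5 endothelial markers. The endothelial markers summed to 13510 to 14356 bp in BCAS libraries and to 10541 to 12901 bp in sham libraries, with no overlap, and 2 of the 5 differences were above 0 (Flt1 0.63 and Pecam1 0.32). No other marker locus was called, and the part that cell composition takes in the channel results was not tested.

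Among the sodium channel α subunits, all 4 that are well known from brain neurons had less covered length in BCAS mice than in sham mice on average, and none passed the test. Scn2a, the α subunit of the axon initial segment of excitatory neurons, was covered over 5312, 4641, 4404 and 4463 bp in BCAS libraries, against 6714, 5828, 5566 and 5079.9 bp in sham libraries. Its log2 difference was -0.29 ± 0.10 (SE), with an adjusted p of 0.137. Of the 4 sham libraries, sham 4 was below BCAS 1, and the other 3 were above all BCAS libraries.

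Scn1a, the α subunit of fast-spiking inhibitory neurons, was covered over 3778, 3406, 3511 and 2821 bp in BCAS libraries, against 3655, 4631, 4299 and 3145 bp in sham libraries. The groups overlapped and the log2 difference was -0.20 ± 0.12 (adjusted p = 0.506). Scn8a, found at mature initial segments and nodes, was covered over 5948, 6677, 6419 and 7066 bp in BCAS libraries, against 8209, 7031, 6336 and 6863 bp in sham libraries, again with overlap (-0.12 ± 0.09, adjusted p = 0.652). Scn3a, which is most abundant before birth, was covered over 2315, 2644, 3057 and 2717 bp in BCAS libraries, against 3117, 2751, 2837 and 3021 bp in sham libraries (-0.12 ± 0.11, adjusted p = 0.698). For each of these 3 genes the lowest library was a BCAS library, and the groups overlapped.

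Scn4a, the channel of skeletal muscle and the channel gene with the highest log2 difference, was covered over 998, 1275, 1030.5 and 766 bp in BCAS libraries, against 651, 833, 543 and 674 bp in sham libraries, with a log2 difference of 0.47 ± 0.16 and an adjusted p of 0.126. Only BCAS 4 was below sham 2. Of the 5 skeletal muscle marker genes, 4 were tested, 0 were called and all 4 had a difference below 0 (median -0.16), with sums of 2327 to 2724 bp in BCAS libraries and 2483 to 2798 bp in sham libraries. The fifth, Tnnt3, was below the minimum, with 178, 285, 292.5 and 225 bp in BCAS libraries, against 0, 0, 0 and 0 bp in sham libraries, and its part in the Scn4a values was not tested.

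In Scn4a, the region at chr11:106329748-106330018 had 211, 271, 252 and 200 bp in BCAS libraries, against 0, 200, 204 and 0 bp in sham libraries. A peak was thus present in every BCAS library and absent in sham 1 and sham 4. Values of single regions are bp as called in each list, with no scaling.

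Scn9a, Scn10a and Scn11a, the α subunits of sensory neurons, and Scn7a, an atypical channel that senses sodium, were thinly covered in cortex. Scn10a was covered over 896, 709, 1581 and 512 bp in BCAS libraries, against 953, 895, 1289 and 1163 bp in sham libraries (-0.26 ± 0.21). Scn11a was covered over 504, 338, 699.5 and 216 bp in BCAS libraries, against 236, 484, 901 and 755 bp in sham libraries (-0.29 ± 0.28). The spread between mice exceeded the difference in both. Scn9a and Scn7a had log2 differences of -0.00 ± 0.15 and -0.07 ± 0.19.

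The sodium channel β subunits Scn2b, Scn3b and Scn4b had differences below 0. Scn2b was covered over 1408, 1374, 1065 and 1444 bp in BCAS libraries, against 1735, 1723, 1425 and 1456 bp in sham libraries (-0.23 ± 0.13, adjusted p = 0.423). Scn4b, known for its part in resurgent current, was covered over 1509, 1302, 2119 and 1404 bp in BCAS libraries, against 1782, 2064, 1685 and 1647 bp in sham libraries (-0.18 ± 0.14). Scn3b was covered over 1494, 1196, 923 and 1529 bp in BCAS libraries, against 1761, 1145, 1439.5 and 1406 bp in sham libraries (-0.15 ± 0.15). In all 3 the groups overlapped.

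**Figure D2:**
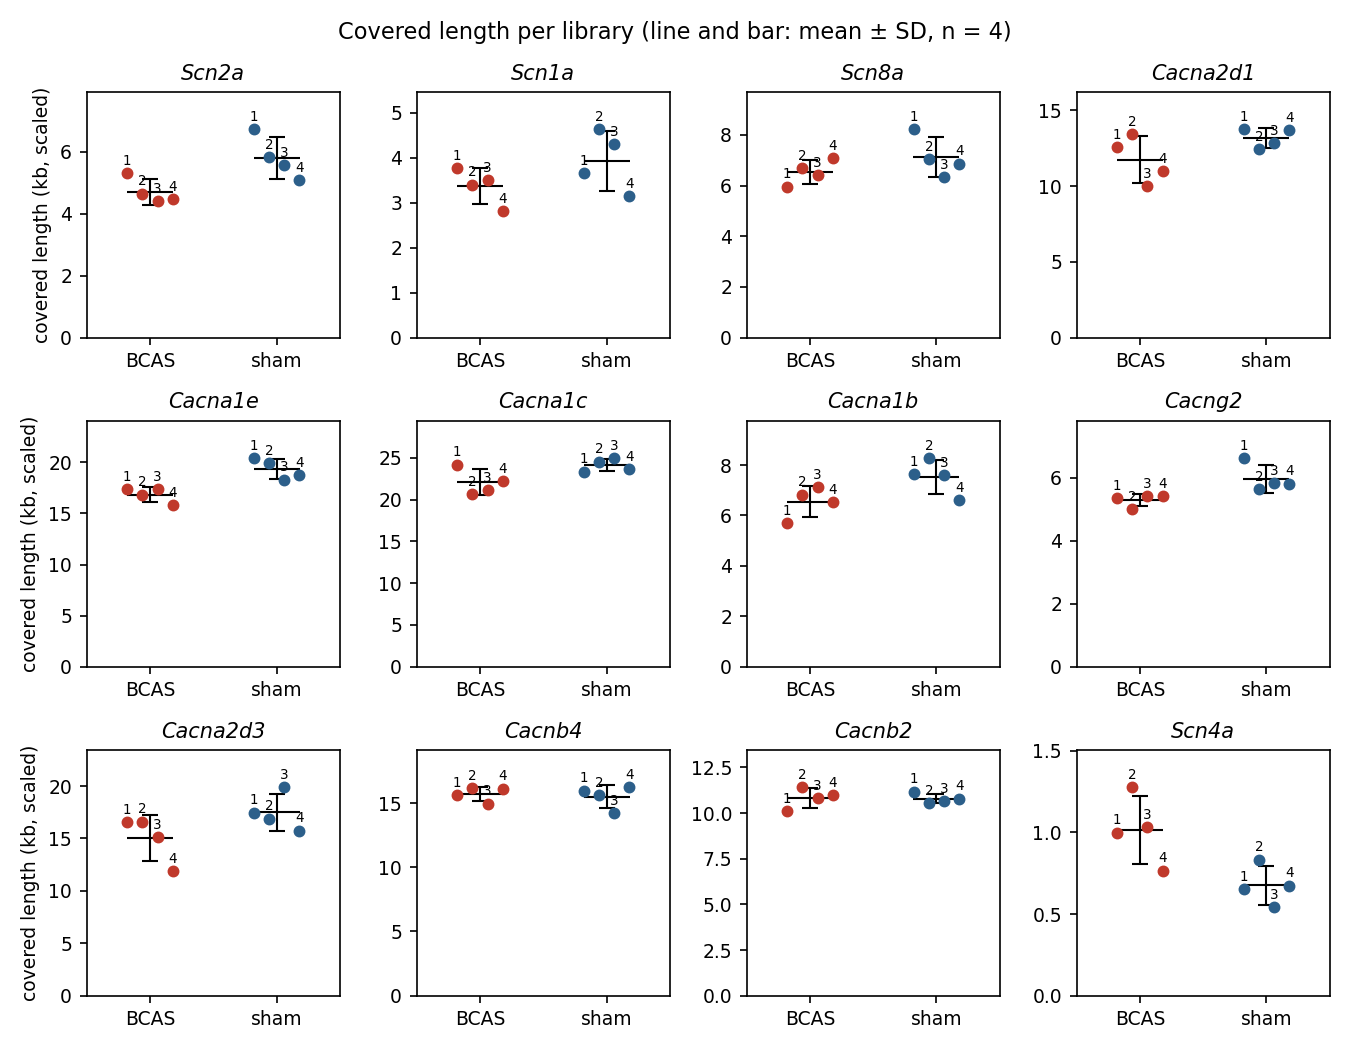
Scaled covered length (kb, y axis from 0) of 12 channel loci in each library, BCAS in red and sham in blue, with replicate numbers at the points and the mean ± SD (n = 4) in black. Every BCAS library is below every sham library for Cacna1e and Cacng2, whereas the groups overlap for the other 10 loci.

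Among the calcium channel α1 subunits, the gene with the lowest adjusted p of all channel genes was Cacna1e, which encodes the R-type channel of dendrites and terminals. It was covered over 17376, 16830.2, 17385 and 15788 bp in BCAS libraries, against 20387, 19942, 18317 and 18721 bp in sham libraries, that is 16845 ± 751 bp in BCAS mice and 19342 ± 981 bp in sham mice (SD, n = 4 each). The log2 difference was -0.20 ± 0.06 with an adjusted p of 0.0829, and every BCAS library was below every sham library (two-sided exact permutation test, p = 0.0286, the smallest that 4 against 4 libraries allow). It was 1 of 2 channel loci with this separation downward, with Cacng2, where 2.47% of all loci had it. Separation upward was found in 1 of the 39 loci, where 6.03% of all loci had it. The difference was -0.17 within the class of higher read GC content and -0.17 within the class of lower read GC content.

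Cacna1e held 67 merged regions, of which 26 had a peak in all 8 libraries, 24 had peaks in more sham than BCAS libraries and 11 had the opposite. Over all regions of the genome, 23.2% had peaks in more sham libraries and 30.4% in more BCAS libraries. The lists held 55, 45, 42 and 37 peaks of Cacna1e in BCAS libraries, against 44, 53, 56 and 45 in sham libraries. After scaling to the number of peaks of each library, these were means of 43.2 peaks in BCAS mice and 51.3 in sham mice (two-sided exact permutation test, p = 0.0286). The limma fit on scaled peak numbers gave a log2 difference of -0.25 (adjusted p = 0.0491), where the median over all loci was -0.06. This was the 1 measure on which Cacna1e passed the threshold. The sham-only region of Cacna1e, whose window with an AP-1 motif is shown above, held 246, 200, 295 and 237 bp of peaks in sham libraries.

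Cacna1b, the N-type channel of terminals, was covered over 5683, 6818, 7117 and 6530.5 bp in BCAS libraries, against 7630.3, 8259.8, 7588 and 6618 bp in sham libraries (-0.20 ± 0.09, adjusted p = 0.318). Its difference was -0.45 within the class of higher read GC content and 0.04 within the class of lower read GC content. Cacna1a, the P/Q-type channel that drives release at most central synapses, was covered over 10314, 10544, 11086 and 9824 bp in BCAS libraries, against 10970.2, 11563, 11533 and 8986 bp in sham libraries (-0.04 ± 0.08, adjusted p = 0.922). The groups overlapped for both genes.

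The L-type channels link calcium entry in the soma and dendrites to transcription. Cacna1c, with 92 regions the channel gene with most of them, was covered over 24178, 20685, 21121 and 22226 bp in BCAS libraries, against 23349, 24529, 24917 and 23617 bp in sham libraries (-0.13 ± 0.06, adjusted p = 0.284), and BCAS 1 alone was within the range of the sham libraries. Cacna1d was covered over 16109.6, 15645, 16773 and 14555 bp in BCAS libraries, against 16120.4, 16807, 15387 and 14122 bp in sham libraries (0.02 ± 0.07, adjusted p = 0.963), with overlap. The L-type genes of skeletal muscle, Cacna1s, and of the retina, Cacna1f, had log2 differences of -0.15 ± 0.12 and 0.03 ± 0.11.

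The T-type channels open near rest and support bursts. Cacna1i was covered over 2436, 1741, 2853 and 2344 bp in BCAS libraries, against 2023, 1836, 2450.5 and 1891 bp in sham libraries (0.17 ± 0.14, adjusted p = 0.68). Cacna1g was covered over 4864, 3491, 4503 and 4058 bp in BCAS libraries, against 4428, 4809.5, 4712 and 2606 bp in sham libraries (0.06 ± 0.16). Cacna1h was covered over 2403, 2398, 3261 and 1799 bp in BCAS libraries, against 2468, 2548, 2667 and 2063 bp in sham libraries (-0.01 ± 0.14). All 3 overlapped between the groups, and Cacna1g was lowest in sham 4.

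The α2δ subunits, which bring channels to the terminal, showed 3 differences below 0 of 4. Cacna2d3, the longest locus at 822.9 kb, was covered over 16555, 16618, 15123 and 11863 bp in BCAS libraries, against 17466, 16906, 19869 and 15732 bp in sham libraries (-0.22 ± 0.10, adjusted p = 0.265). It passed the threshold only when the lists were shortened to equal length (limma, log2 difference -0.32, adjusted p = 0.0464). Cacna2d1, a binding site of gabapentinoid drugs, was covered over 12557, 13438, 10006 and 10976 bp in BCAS libraries, against 13729.9, 12425, 12817 and 13672 bp in sham libraries (-0.17 ± 0.08, adjusted p = 0.366). Cacna2d2 was covered over 4333, 3571, 3889 and 3494 bp in BCAS libraries, against 3905, 4291, 3383 and 3836 bp in sham libraries (-0.01 ± 0.10). Cacna2d4, a retinal subunit, had a log2 difference of 0.05 ± 0.08, and its locus also holds Lrtm2 and Adipor2.

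The 4 cytoplasmic β subunits lay closest to no difference as a group, between 0.00 and 0.07 on the log2 scale. Cacnb4, a subunit of cerebellum and cortex, was covered over 15643, 16144, 14968 and 16136 bp in BCAS libraries, against 15979, 15615, 14231 and 16216 bp in sham libraries (0.02 ± 0.06). Cacnb2 was covered over 10111, 11402, 10808 and 10994 bp in BCAS libraries, against 11174, 10558, 10659 and 10794 bp in sham libraries (0.00 ± 0.07). With SE of 0.06 and 0.07, these 2 were among the most precisely measured channel loci.

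Cacnb1 was covered over 1662, 1616, 2158 and 1219 bp in BCAS libraries, against 2659, 1148, 1758 and 1111 bp in sham libraries (0.05 ± 0.21). Cacnb3 was covered over 1656, 1137, 1959 and 1609.7 bp in BCAS libraries, against 1245, 1939.8, 1623 and 1217 bp in sham libraries (0.07 ± 0.16). Their loci are short, at 27.5 and 19.7 kb, and their SE was 0.21 and 0.16.

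Of the 8 γ subunit genes, 7 were tested and 6 of these had a difference below 0. Cacng2, which encodes stargazin, the founding TARP, was covered over 5339.8, 5010.0, 5414 and 5405 bp in BCAS libraries, against 6610.2, 5627, 5819 and 5805 bp in sham libraries (-0.16 ± 0.08, adjusted p = 0.387), and every BCAS library was below every sham library (two-sided exact permutation test, p = 0.0286). Cacng3 was covered over 3368, 4361, 3301 and 3371 bp in BCAS libraries, against 4713, 3342, 4498 and 3988 bp in sham libraries (-0.19 ± 0.12). Cacng8, a TARP of hippocampus and cortex with the lowest log2 difference of all channel genes, was covered over 1228, 1286, 789 and 1036 bp in BCAS libraries, against 1623, 1349.7, 1520.4 and 1116 bp in sham libraries (-0.33 ± 0.15, adjusted p = 0.312). Cacng3 and Cacng8 overlapped between the groups.

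The remaining TARP genes Cacng4, Cacng5 and Cacng7 had log2 differences of -0.09 ± 0.11, -0.00 ± 0.11 and -0.20 ± 0.18. Cacng1, the γ subunit of skeletal muscle, was thinly covered over 444, 326, 609 and 296 bp in BCAS libraries, against 381, 299, 288 and 393 bp in sham libraries (0.17 ± 0.22). Cacng6, also of muscle, was below the minimum and was not tested, with 0, 0, 0 and 0 bp in BCAS libraries, against 257, 229, 596 and 0 bp in sham libraries. Its peaks lay in 3 sham libraries, and 0 of 4 BCAS libraries had a peak.

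Promoters were measured on their own as the bp covered within 1 kb of any annotated start of the gene. Of the 40 channel genes, 28 were among the 14223 tested promoters, and 0 passed the threshold, where 1.05% of all promoters were higher in BCAS mice and 0.00703% were lower. The 28 differences were split into 14 above and 14 below 0, with a median of -0.01 against -0.02 for all promoters. At an unadjusted p under 0.05, 2 were higher, with Cacna1h among them, where 5.15% of all promoters were, and 2 were lower (Scn2a and Cacna1e), where 1.51% were. Of the 12 promoters below the minimum, those of Scn4a, Scn10a, Scn11a, Cacna1f, Cacng1 and Cacng6 held no peak in any library.

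The promoter windows of Scn2a covered 1402, 1594, 1586 and 1429 bp in BCAS libraries, against 2461, 2108, 1975 and 1659 bp in sham libraries, with a log2 difference of -0.39 ± 0.13 and an adjusted p of 0.207. Every BCAS library was below every sham library, in 1 channel promoter of 28, where 0.83% of all promoters had this separation and 2.41% had the opposite. The upstream start of Scn2a lies in the region chr2:65620544-65621764, open in all 8 libraries. This region held 724, 629, 584 and 483 bp of peaks in BCAS libraries, against 1027, 943, 1071 and 750 bp in sham libraries. The RefSeq promoter window of this start (GRCm38.p6, plus strand) is shown because the region at this start separated the groups. It had a GC content of 33.0%, the lowest of the 41 RefSeq windows of channel genes, and none of the 10 motifs was found in it.
Scn2a, chr2:65620519-65620818: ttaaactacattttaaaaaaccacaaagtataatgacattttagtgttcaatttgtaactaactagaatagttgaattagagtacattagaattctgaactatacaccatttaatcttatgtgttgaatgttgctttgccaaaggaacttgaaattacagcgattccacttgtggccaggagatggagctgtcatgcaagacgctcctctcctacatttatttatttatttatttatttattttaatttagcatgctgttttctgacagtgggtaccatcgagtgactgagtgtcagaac

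RefSeq windows, which run from 250 bases before a start to 50 after it, were matched for 30 of the 40 channel genes. The 10 motifs were rare in their 41 windows. AP-1 was found in Cacng5 (5.20% of all 32851 windows held it), EGR in Scn7a (0.612%), CTCF in Scn8a (1.25%) and NEUROD in Cacna1s and Cacna1f (5.30%), and the other 6 were found in none.

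The promoter windows of Cacna1h covered 483, 849, 862 and 494 bp in BCAS libraries, against 278, 766, 410.3 and 0 bp in sham libraries (0.81 ± 0.30, adjusted p = 0.372). Sham 4 had no peak, sham 1 and sham 3 were below all BCAS libraries, and sham 2 was above 2 BCAS libraries. Without sham 2 the log2 difference was 1.13 with an adjusted p of 0.00521 (limma), and without sham 4 it was 0.38 with an adjusted p of 0.79. Those of Cacna1e covered 401, 418, 329 and 0 bp in BCAS libraries, against 626, 454, 541 and 289.6 bp in sham libraries (-0.58 ± 0.28, adjusted p = 0.725), and without BCAS 4, which had no peak, the log2 difference was -0.20. Those of Cacna1d covered 1077, 1136, 1239 and 1280.2 bp in BCAS libraries, against 1074, 1113, 949 and 921 bp in sham libraries (0.19 ± 0.12, adjusted p = 1).

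**Figure D3:**
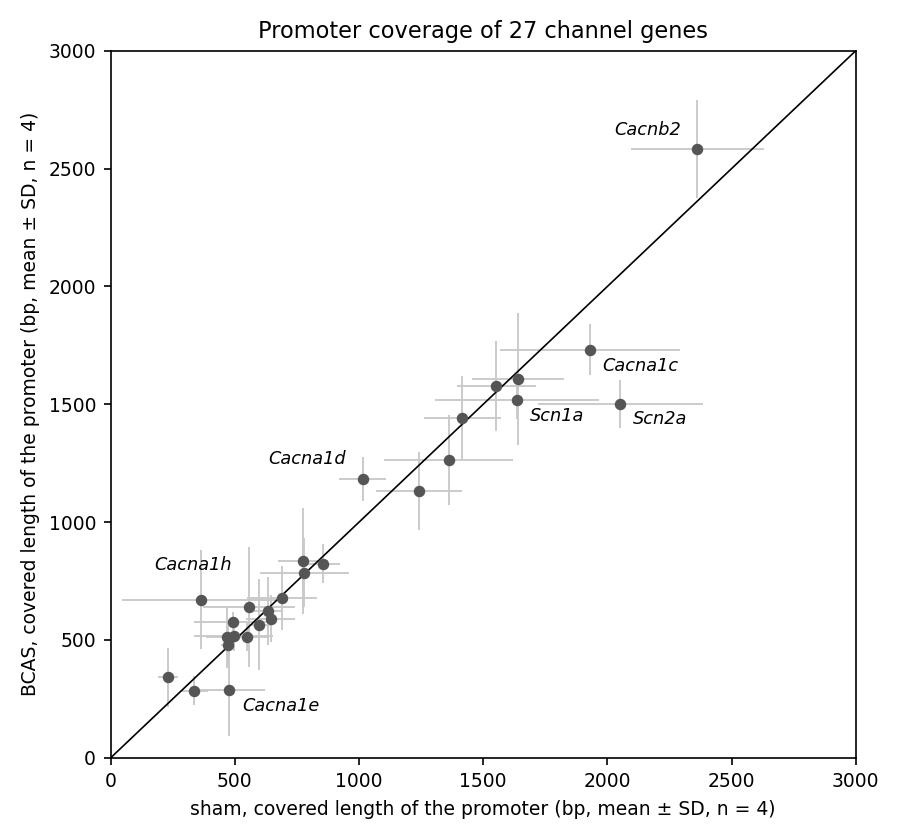
Covered length within 1 kb of any start (bp) for 27 of the 28 tested channel promoters, BCAS mean on the y axis and sham mean on the x axis, with SD bars (n = 4) and the line of equality. Scn2a lies below the line, at 1503 bp in BCAS mice and 2051 bp in sham mice, and most other promoters lie near it.

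Presence of peaks was compared region by region. Of the 822 regions, 301 (36.6%) had a peak in all 8 libraries, against 36.2% of all regions. By their midpoint, 677 regions were intronic, 59 lay within 1 kb of a start of the channel gene, 32 in the flanks, 28 within 1 kb of a start of another gene and 26 in exons. Of the 59 promoter regions 35 were open in all 8 libraries (59.3%), against 34.9% of the intronic ones. The loci of 12 channel genes also held another protein-coding gene.

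Regions with a peak in every BCAS library and in no sham library numbered 4 (0.487%), against 1.62% of all regions. They were chr2:52577674-52578087 in Cacnb4, chr8:84567544-84567892 in Cacna1a, and chr14:30362372-30362754 and chr14:30371130-30371421 in Cacna1d. The Cacnb4 region held 246, 200, 282 and 358 bp of peaks in BCAS libraries, the first Cacna1d region 383, 334, 337 and 290 bp and the second 254, 280, 239 and 241 bp. The Cacna1a region, in an exon, held 250, 225, 304 and 227 bp.

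Regions with a peak in every sham library and in no BCAS library numbered 2 (0.243%), against 0.0945% of all regions. They were the Cacna1e region above and chr2:52563388-52563673 in Cacnb4, which held 281, 276, 212 and 200 bp of peaks in sham libraries. With 1 library of the other group allowed, 4 further regions had a peak in every BCAS library (0.487%, against 1.24% of all regions). They included 2 in Cacnb4 and 1 in Cacna1d. Another 9 had a peak in every sham library and in 1 BCAS library (1.09%, against 0.591% of all regions). They lay in Scn2a, Cacna2d1, Cacna1c, Cacna1a, Cacna2d2, Cacna2d3, Cacna1d, Cacng2 and Cacna1h.

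In 6 of these 9 regions the BCAS library with a peak was BCAS 1, as in 80.8% of all 1169 such regions of the genome. BCAS 1 held the most peaks and was in the class of higher read GC content with sham 1, 2 and 3, and its part in these counts was not tested. Of the 4 regions with a peak in every BCAS library and in 1 sham library, the sham library was sham 4 in the 2 regions of Cacnb4 and sham 3 in the others. Cacnb4 held 4 of these 19 regions, 3 toward BCAS and 1 toward sham, and Cacna1d held as many in each direction. The total covered length of neither gene separated the groups.

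**Figure D4:**
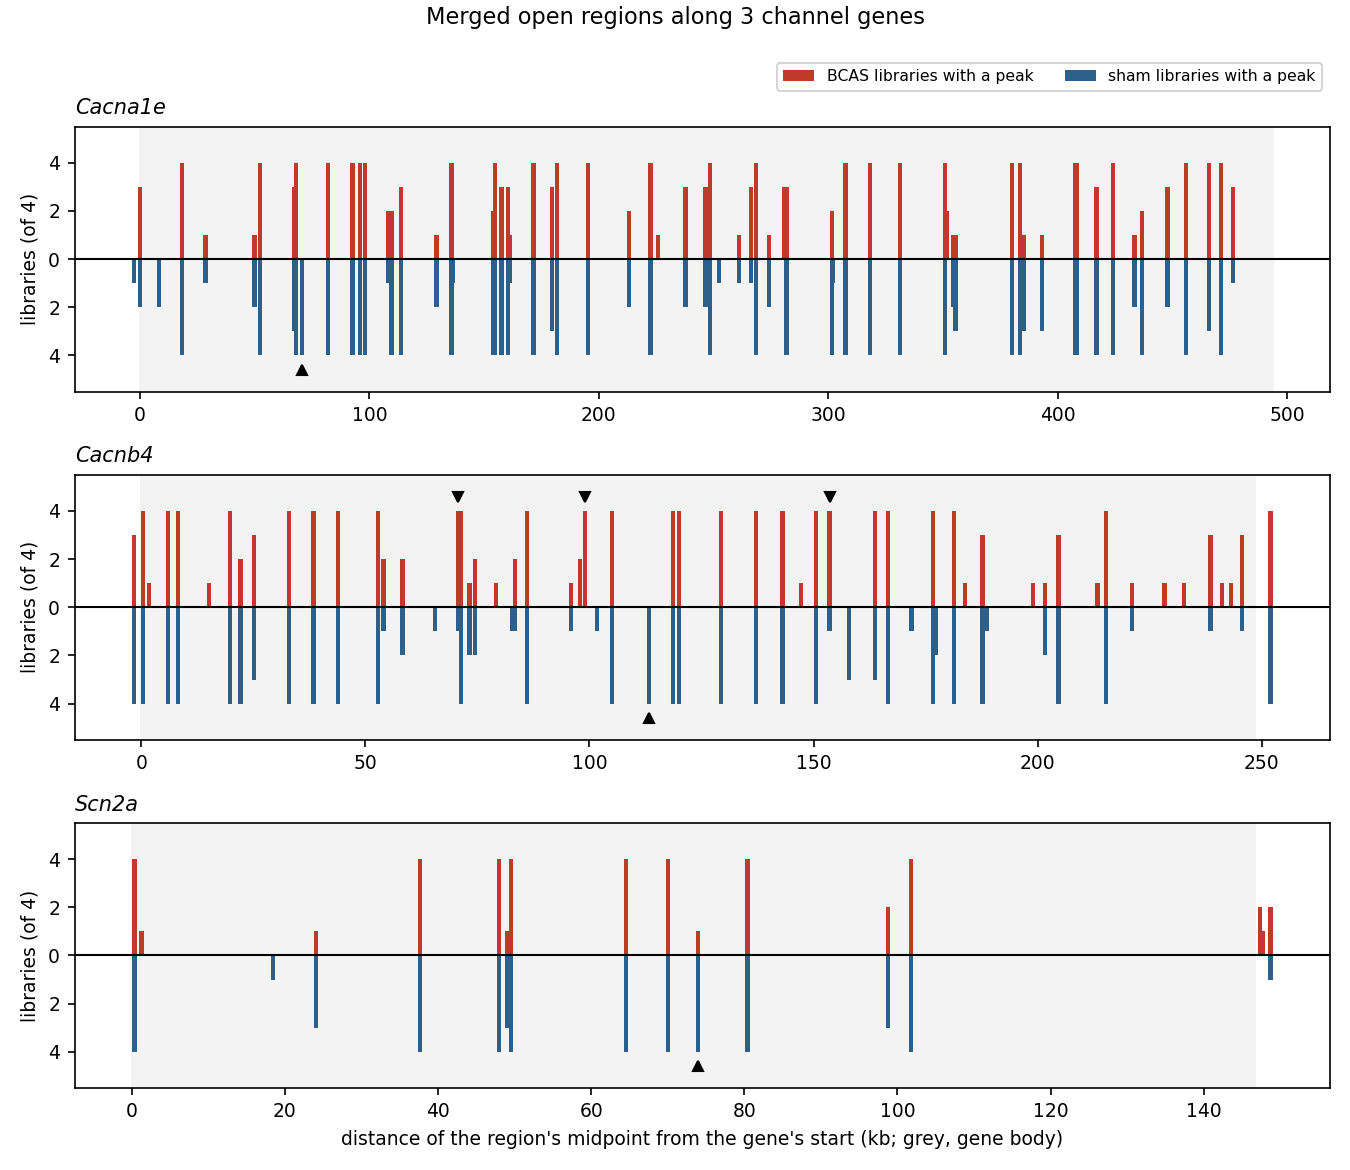
Merged regions along Cacna1e, Cacnb4 and Scn2a by the distance of their midpoint from the start of the gene (kb), with the number of BCAS libraries with a peak upward (red) and of sham libraries downward (blue), and the gene body in grey. Triangles mark regions with a peak in every library of one group and in at most 1 of the other: 1 toward sham in Cacna1e, 3 toward BCAS and 1 toward sham in Cacnb4, and 1 toward sham in Scn2a.

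**Figure D5:**
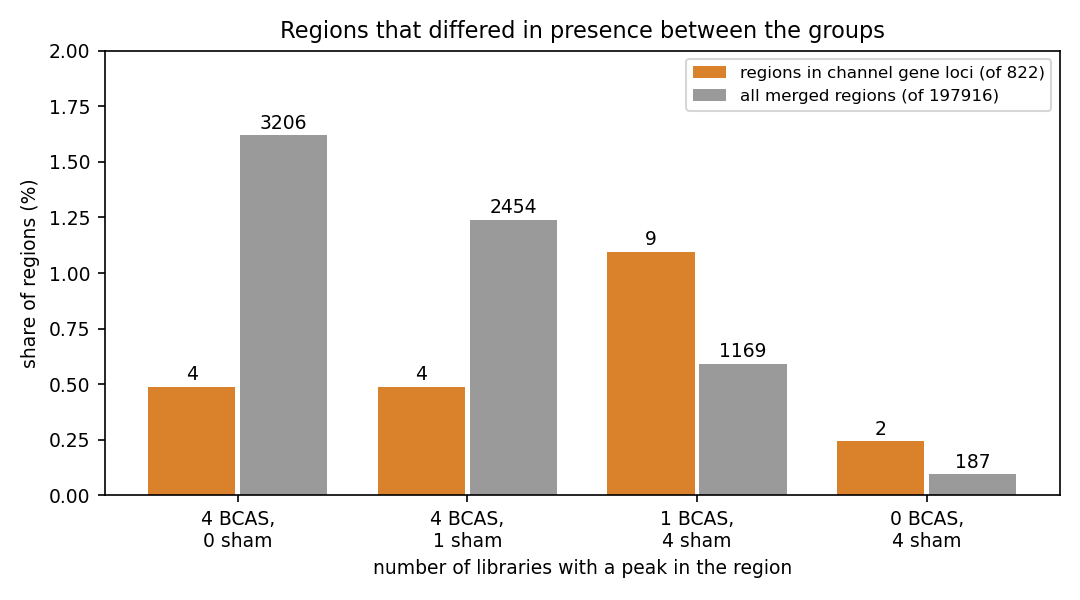
Share (%) of the 822 channel regions (orange) and of all 197916 regions (grey) with a peak in every library of one group and in 0 or 1 libraries of the other, with the number of regions above each bar. Channel regions are at 0.487% against 1.62% for peaks in 4 BCAS and 0 sham libraries, and at 1.09% against 0.591% for peaks in 1 BCAS and 4 sham libraries.

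Genes whose products work with the channels were counted from lists of anchors, scaffolds, regulators and other routes of calcium. For comparison, 3.16% of all tested loci were called higher, 0.376% were called lower and 49.6% had a difference below 0. Of 17 partners of sodium channels, all tested, 0 were called higher and 1 was called lower, and 14 had a difference below 0 (median -0.08). The called gene was Ank3, which encodes the ankyrin that clusters sodium channels at the initial segment. It was covered over 24892, 23675, 24418 and 23107 bp in BCAS libraries, against 30464, 27346, 26834 and 26731 bp in sham libraries (-0.21 ± 0.05, adjusted p = 0.0385), with every BCAS library below every sham library. The call held in 5 of 23 alternative analyses, with adjusted p between 0.0101 and 0.852.

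Of 20 partners of calcium channels, 19 were tested, 0 were called higher and 1 was called lower, and 12 were below 0 (median -0.08). The called gene was Rims1, an active zone scaffold that holds calcium channels near vesicles. It was covered over 11796, 10708, 10075 and 11069.9 bp in BCAS libraries, against 13783, 13675, 14276 and 12144 bp in sham libraries (-0.30 ± 0.07, adjusted p = 0.0289), with no overlap between the groups. The call held in 8 of 23 alternatives, with adjusted p between 0.0114 and 0.758. Of 19 genes of sodium leak and of calcium stores, pumps and exchangers, all tested, 1 was called higher and 0 lower, and 13 were below 0 (median -0.08). The called gene was Itpr2, a calcium release channel of the endoplasmic reticulum that is prominent in astrocytes. It was covered over 17289, 15947, 19284 and 17822 bp in BCAS libraries, against 13479, 14286, 13814 and 16296 bp in sham libraries (0.28 ± 0.07, adjusted p = 0.043), and sham 4 was above BCAS 2. The call held in 6 of 23 alternatives, with adjusted p between 0.00855 and 0.35.

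Within the class of higher read GC content, 25 of the 39 channel loci were below 0, where 59.8% of all loci were. The median there was -0.08, against -0.06 over all loci. Within the class of lower read GC content 22 were below 0, where 51.6% of all loci were, and the median was -0.06, against -0.01. The differences within the higher and the lower class were -0.17 and -0.17 for Scn2a and 0.47 and 0.46 for Scn4a. They were -0.16 and -0.13 for Cacng2 and -0.12 and -0.13 for Cacna2d3. For Cacng8 they were -0.25 and -0.11, and for Cacna1c -0.005 and -0.15. In 16 loci the difference was below 0 in both classes and in 8 it was above 0 in both. Neither count was taken over all loci. With the class as a covariate, 0 channel loci were called, 23 were below 0 and the median was -0.05, against -0.04 over all loci. With the GC content of each library's peak DNA as a covariate the median was -0.04, against -0.05 over all loci. With neither covariate was the channel median as far from that of all loci as without them.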

How the data were processed

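ATAC-seq peak lists of mouse cortex were used, 1 per library, from 4 BCAS and 4 sham mice, grouped by the labels. The submitters' processing notes name FastQC, Trim Galore, Bowtie2 2.3.4.3, SAMtools 1.9, MACS2 and DiffBind and the build mm10. Options of MACS2, and whether reads were shifted for Tn5, are not given in the sources used. The deposited lists were called per library and give each peak's position, a score, a fold ratio, a -log10 p and a -log10 q, as the authors' peak caller wrote them. They hold 1028949 peaks, the shortest of 200 bp, with a -log10 q of at least 1.309. They hold no read counts, so the precision behind a peak is unknown.

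Covered bp per locus (GENCODE gene body plus 3 kb) were scaled to the mean library total and tested as log2(bp + 200) with limma 3.58.1 (R 4.3.3, variance trend), over loci with a mean of at least 200 bp, with Benjamini-Hochberg adjustment at 0.05. Fold changes on this scale understate those of thinly covered loci. Promoters (1 kb around any start) were tested in the same way. Single values were compared by two-sided exact permutation tests over 70 labelings (smallest p 0.0286). Python 3.11.15, numpy 2.4.6, pandas 2.3.3, scipy 1.17.1 and matplotlib 3.10.9 were used, and the fits were tested on simulated data. Motifs were searched within 100 bp of the summit of the peak with the highest -log10 q. A limma p-value weighs the group difference against the spread between these mice, with the variance drawn toward a trend over all tested loci. A permutation p-value is the share of the 70 labelings with a difference at least as large.

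Values in every library are given for the 6 highest and 6 lowest log2 differences and for the main cortical subunits, and for partner genes only where called. Single values of 2 channel genes are not reported here, and they remain in all counts and medians. Lists were partners of sodium channels, partners of calcium channels, leak and store calcium genes, and markers of 8 cell types. The members and lists were chosen with earlier results of these data known. Alternatives covered peak threshold, list length, pseudocount, scaling, minimum, flanks, covariates, replicate block and each library left out.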

Additional observations from a re-analysis of the deposited data

Results flagged for a closer look

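In 136 groups of 4 libraries, 3 held a library far from the others of its group by the gap to its nearest neighbour over the range, where chance gives about 1 in 20 (6.8). Scn9a had 1977 bp in BCAS 4, and the other BCAS libraries had 1245 to 1302 bp. Cacng3 had 4361 bp in BCAS 2, and the other BCAS libraries had 3301 to 3371 bp. The promoter windows of Cacna1a had 707.6 bp in BCAS 1, and the other BCAS libraries had 438 to 459 bp.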

How the results depend on the processing

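Of 895 values of single channel loci under the alternatives, 805 kept their sign and their side of the threshold, 88 had the other sign and 2 passed the threshold only there. Of the channel loci, 19 kept their sign in every alternative, 16 of them below 0. The number of channel loci called was 0 in the other alternatives, 1 with lists of equal length (Cacna2d3) and 1 with the number of peaks per locus (Cacna1e). Of all 16778 loci tested with lists of equal length, 555 were called higher and 86 lower. With the number of peaks per locus these were 255 and 27 of 17273. The channel median was -0.0384 with GC content of peak DNA as a covariate and -0.0055 with no scaling, and -0.11 to -0.06 with a library left out. Without scaling, 222 of all loci were called higher and 1 lower, against 538 and 64 with it. Over all alternatives these counts were 196 to 778 and 1 to 160. Replicate numbers did not pair the mice (correlations of -0.16, -0.01, -0.10 and 0.14 between same-numbered libraries). With the replicate block 0 channel loci were called, with 778 of all loci higher and 160 lower. The fit with the block called 1 channel promoter (Cacna1h, adjusted p = 0.00217 by limma), with 277 of all promoters higher and 15 lower. In the main fit 149 of all promoters were higher and 1 was lower. With a library left out, 0 to 1 channel promoters were called, the 1 without sham 2, where 244 of all promoters were higher and 9 lower. Regions with peaks in every BCAS and no sham library numbered 2 with lists of equal length, 8 when 3 libraries of a group sufficed and 4 to 6 with a library left out. Those in every sham and no BCAS library numbered 0 with stricter peaks, 1 with lists of equal length and 5 when 3 libraries sufficed. With a library left out they numbered 2 to 9 (9 without BCAS 1, 4 without BCAS 2 and 4 without sham 4). Over all regions, the BCAS-only count was 3206 in the main analysis, 6495 when 3 libraries sufficed and 3310 to 4614 with a library left out. The sham-only count over all regions was 187 in the main analysis, 641 with lists of equal length and 1172 when 3 libraries sufficed. With a library left out it was 223 to 1133 (1133 without BCAS 1, 310 without BCAS 2 and 631 without sham 4). The causes were not tested.

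The log2 differences that took the other sign were as follows. With number of peaks per locus, Scn8a 0.0551, Cacna1f -0.10, Cacna1a 0.0234, Cacna1g -0.0642, Cacna2d4 -0.0949, Cacnb2 -0.0042 and Cacnb4 -0.0166. With lists of equal length, Scn3a 0.0767, Cacna1f -0.14, Cacnb1 -0.11, Cacnb3 -0.12 and Cacnb2 -0.0204. With GC content of peak DNA as covariate, Scn9a 0.0145, Scn7a 0.0701, Cacna1f -0.0121, Cacna1a 0.003, Cacna1h 0.0062, Cacna2d2 0.0066, Cacnb2 -0.0278 and Cacnb4 -0.0051. With distal part of the locus, Scn9a 0.0143 and Cacnb2 -0.0509. With gene body plus 10 kb, Scn9a 0.0406, Scn11a 0.41, Cacna1f -0.0333 and Cacnb3 -0.0364. With no scaling, Scn9a 0.072, Cacna1a 0.0501, Cacna1h 0.0752, Cacna2d2 0.0738 and Cacng5 0.0777. With number of peaks as covariate, Scn9a 0.0093, Cacna1g -0.0203 and Cacng5 0.0093. With pseudocount 1000 bp, Scn9a 0.0007. With read GC class as covariate, Scn9a 0.033, Scn7a 0.018, Cacna1a 0.0403, Cacna1h 0.0632, Cacna2d2 0.0482, Cacnb2 -0.0286 and Cacnb4 -0.0034. With stricter peaks (-log10 q of 5), Cacna1f -0.14, Cacna1i -0.0266, Cacnb1 -0.0141, Cacnb3 -0.0944, Cacnb2 -0.0727, Cacng5 0.0014 and Cacng7 0.0499. With gene body with no flank, Cacnb3 -0.0288 and Cacnb2 -0.0157. With median-ratio scaling, Cacnb2 -0.0108. With a library left out, the differences that crossed 0 were Cacna1d -0.0309 to 0.0531, Cacna1f -0.0231 to 0.0753, Cacna1g -0.14 to 0.14, Cacna1h -0.14 to 0.12, Cacna2d2 -0.0706 to 0.0392, Cacnb1 -0.0973 to 0.28, Cacnb2 -0.0215 to 0.0352, Cacnb3 -0.027 to 0.20, Cacnb4 -0.0198 to 0.0436, Cacng5 -0.0874 to 0.0375, Scn7a -0.15 to 0.0153 and Scn9a -0.14 to 0.0548. Lists without read counts limit what can be said of single peaks near the calling threshold.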
